A study of Mus musculus with 6 samples.

Results

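The epithelial sodium channel and the genes of its control by aldosterone were examined in the ureteric epithelium of the embryonic mouse kidney. The 10 genes were taken by symbol from a table of 21456 gene symbols with values, after summing RPKM (read number per transcript length and per library total) over the rows of each symbol. They are the channel subunit genes Scnn1a, Scnn1b and Scnn1g, the mineralocorticoid receptor gene Nr3c2, the steroid dehydrogenase gene Hsd11b2, the kinase gene Sgk1, the ubiquitin ligase gene Nedd4l, the protease genes Prss8 and St14, and the corticosteroid target gene Tsc22d3. All 10 had values, and each averaged 1 RPKM or more across the libraries, the minimum for a test.

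The samples were mRNA libraries of sorted ureteric cells from developing kidneys of CFW mice at stage E16.5, with 3 libraries in each of 2 groups. Tip cells carried a red reporter of Wnt11 and a green reporter of Hoxb7 (Wnt11RFP+;Hoxb7GFP+), and stalk cells carried the green reporter without the red one (Wnt11RFP-;Hoxb7GFP+). Both groups therefore share the Hoxb7 reporter, which marks the whole ureteric tree, and the groups differ in the Wnt11 reporter, which marks its growing tips. The labels do not say whether different mice or litters gave the replicates of a group. The p-values therefore rest on library-to-library spread alone, and that spread may be technical.

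In the collecting duct, sodium enters principal cells through a channel built from an alpha, a beta and a gamma subunit, encoded by Scnn1a, Scnn1b and Scnn1g. Aldosterone binds the mineralocorticoid receptor, which Hsd11b2 guards by inactivating glucocorticoids, and the receptor raises transcription of Sgk1. The Sgk1 kinase phosphorylates Nedd4l, a ubiquitin ligase that otherwise removes the channel from the membrane, while proteases such as prostasin (Prss8) and matriptase (St14) raise channel activity.

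Stretches of genomic sequence before 3 transcript starts are shown. Scnn1b and Scnn1g were the channel subunit genes in the promoter table named next. Sgk1 carries the element through which corticosteroid receptors are known to act. RefSeq's promoter table for GRCm38.p6 held 5 of the 10 genes (Scnn1b, Scnn1g, Nr3c2, Sgk1 and Tsc22d3), with 12 transcript starts. Each sequence is the 250 bases before a start, 5′ to 3′ on the gene's strand. Capitals mark the hormone response element in Sgk1 and GC boxes (GGGCGG, or CCGCCC on the other strand) in the channel genes.
Sgk1, before the start at 21993890, chr10:21993640-21993889, plus strand: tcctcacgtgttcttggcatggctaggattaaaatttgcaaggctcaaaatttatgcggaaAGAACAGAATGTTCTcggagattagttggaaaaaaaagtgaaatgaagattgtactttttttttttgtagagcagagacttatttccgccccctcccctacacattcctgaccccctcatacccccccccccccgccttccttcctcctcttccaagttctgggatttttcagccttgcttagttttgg
Scnn1g, chr7:121734229-121734478, plus strand: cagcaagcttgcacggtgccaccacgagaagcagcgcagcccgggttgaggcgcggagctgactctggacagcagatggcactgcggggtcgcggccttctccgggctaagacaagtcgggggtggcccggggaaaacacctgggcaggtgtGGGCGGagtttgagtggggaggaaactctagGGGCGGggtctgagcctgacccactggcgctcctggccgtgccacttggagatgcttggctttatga
Scnn1b, chr7:121864788-121865037, plus strand: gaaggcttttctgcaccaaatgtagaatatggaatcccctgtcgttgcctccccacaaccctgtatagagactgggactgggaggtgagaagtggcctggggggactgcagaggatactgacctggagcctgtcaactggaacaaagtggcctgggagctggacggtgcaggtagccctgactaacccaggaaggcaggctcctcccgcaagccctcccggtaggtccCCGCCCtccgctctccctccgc

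The Sgk1 window held 1 match to the palindrome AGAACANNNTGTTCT, searched on both strands, at 21993701 to 21993715 on chromosome 10. The match lay 175 bases before the start named above and 951 bases before the Sgk1 start at 21994666. Of 32851 windows of the same length in the table, 3 held this palindrome (0.00913%), those of Sgk1, Acnat2 and Gm35041. Its half-site AGAACA, which is contained in the palindrome, was found in 16.1% of windows and was in neither channel gene's window. The Sgk1 window held 3 half-sites, 2 of them in the palindrome. Scnn1g held 2 GC boxes and Scnn1b held 1, a motif found in 32.7% of all windows. These matches describe letters only, and no binding was measured here.

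All 10 genes were higher in stalk than in tip, and in all 10 every stalk library lay above every tip library. The subunit gene Scnn1a differed most (48.6-fold), followed by Scnn1b (10.7-fold) and Scnn1g (7.08-fold), while the matriptase gene St14 differed by 1.18-fold. The test was limma on log2(RPKM + 1), two-sided, on 12532 genes with Benjamini-Hochberg adjustment, and 22.5% of all tested genes were called higher in stalk at an adjusted p under 0.05. In 26.5% of tested genes every stalk library lay above every tip library. By at least 1 log2 unit, 8 of the 10 were higher in stalk, against 8.87% of tested genes, by at least 2 units 4 were, against 2.54%, and by at least 3 units Scnn1a and Scnn1b were, against 0.894%. None of the 10 had every tip library above every stalk library, which held for 31.3% of tested genes. The median log2 fold change of the 10 genes, tip minus stalk, was -1.90, against 0.05 over all tested genes. In bulk libraries, fewer cells of a type and less RNA per cell cannot be told apart.

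**Figure D1:**
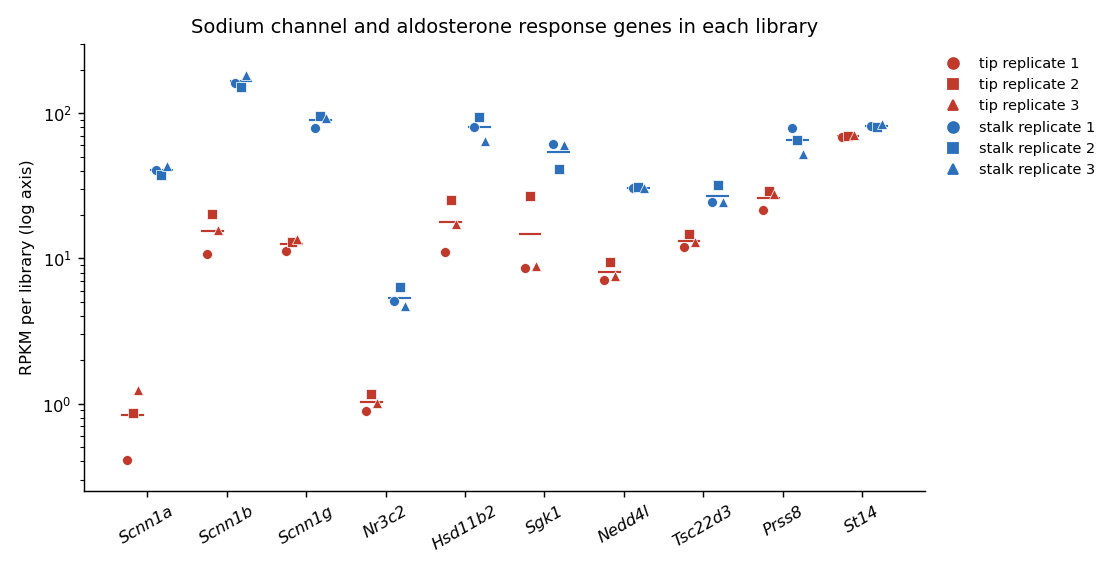
RPKM of each gene in each of the 6 libraries on a log axis, with tip libraries in red, stalk libraries in blue, 1 symbol shape per replicate number and a line at each group's mean (n = 3). No tip point reaches a stalk point of the same gene, and Scnn1a shows the widest gap.

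The channel subunits were examined first. Scnn1a, the alpha subunit gene (ENSMUSG00000030340, chromosome 6, 125320659 to 125344943, plus strand, mm10), stood at 0.410, 0.856 and 1.24 RPKM in tip replicates 1 to 3. It stood at 40.6, 37.8 and 43.1 RPKM in stalk replicates 1 to 3. The stalk libraries lay close together and far above tip, where Scnn1a was near or below 1 RPKM. On the log2 scale, tip minus stalk was -4.52 (SE 0.18, limma adjusted p = 3.49e-06), and 0.239% of tested genes had a larger change toward stalk.

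Scnn1b, the beta subunit gene (ENSMUSG00000030873, chromosome 7, 121865038 to 121918514, plus strand), was the most abundant of the 10 in stalk. It stood at 10.7, 20.3 and 15.6 RPKM in tip and at 162, 153 and 183 RPKM in stalk. Tip levels were less even than stalk levels, with replicate 2 highest, and no tip library came near the stalk range. The log2 fold change was -3.37 (SE 0.20, limma adjusted p = 1.14e-05). Scnn1b overlaps Cog7 on the opposite strand over 39152 bases. The overlap is of whole gene spans, introns included, and shared exons were not examined. Cog7 averaged 12.0 RPKM. Since the use of strand in counting was not given in the sources used here, any reads from shared exons cannot be told apart.

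Scnn1g, the gamma subunit gene, lies 96562 bases from Scnn1b with no protein-coding gene between them (ENSMUSG00000000216, chromosome 7, 121734479 to 121768475, plus strand). It stood at 11.3, 12.9 and 13.7 RPKM in tip and at 79.3, 96.4 and 92.4 RPKM in stalk. Both groups were tight, and the log2 fold change was -2.73 (SE 0.11, limma adjusted p = 3.94e-06). In tip, Scnn1b at 15.5 ± 4.81 RPKM and Scnn1g at 12.6 ± 1.22 RPKM (SD, n = 3) overlapped in level, since Scnn1g exceeded Scnn1b in replicate 1. In stalk the order of the levels was Scnn1b (166 ± 15.8 RPKM), Scnn1g (89.4 ± 8.95 RPKM) and Scnn1a (40.5 ± 2.66 RPKM), with no overlap between subunits. In tip Scnn1a was again the lowest, at 0.834 ± 0.413 RPKM.

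The balance of subunit transcripts within a library also differed between the groups. The ratio of Scnn1b to Scnn1a was 26.0, 23.7 and 12.7 in tip and 3.98, 4.04 and 4.25 in stalk. Its geometric mean was 4.85-fold higher in tip, where it varied more between libraries than in stalk. The ratio of Scnn1g to Scnn1a was 27.5, 15.1 and 11.1 in tip and 1.95, 2.55 and 2.15 in stalk, a 7.55-fold difference of geometric means. In tip, these ratios rest on Scnn1a values of 0.410 to 1.24 RPKM. The leading Scnn1a row held 100%, 91.2% and 65.8% of that gene's RPKM in tip replicates 1 to 3. A minor Scnn1a row was at 0.348 RPKM in tip replicate 3, against 2.32e-06 and 0.0280 RPKM in tip replicates 1 and 2. The low ratios of tip replicate 3 thus rest in part on that minor row. The ratio of Scnn1g to Scnn1b differed less, by 1.56-fold, and its groups met closely, at 0.637 in tip replicate 2 and 0.632 in stalk replicate 2. For each of these 3 ratios the exact two-sided permutation test gave p = 0.1, the smallest that 3 against 3 libraries allow, and p = 0.14 after adjustment over 7 ratios.

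**Figure D2:**
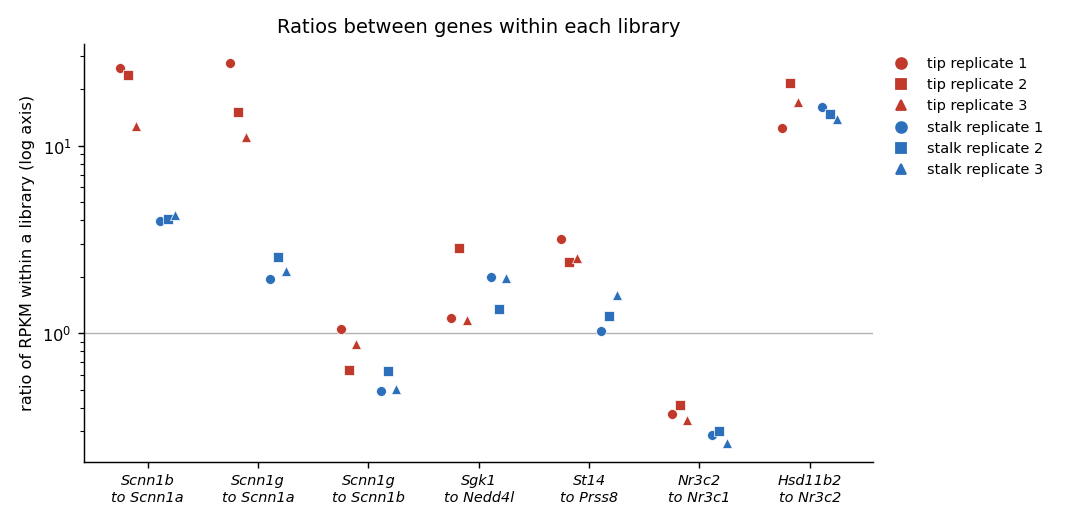
Ratio of RPKM between the genes of each of 7 pairs within each library, on a log axis with a line at 1, with tip in red and stalk in blue. The ratios over Scnn1a are higher in every tip library, while Sgk1 to Nedd4l and Hsd11b2 to Nr3c2 overlap between groups.

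The receptor side was low in level and moved the same way. Nr3c2, the mineralocorticoid receptor gene (ENSMUSG00000031618, chromosome 8, 76899442 to 77245012, plus strand), stood at 0.885, 1.17 and 1.02 RPKM in tip and at 5.07, 6.35 and 4.67 RPKM in stalk. The groups were 5.24-fold apart (log2 fold change -1.65, SE 0.16, limma adjusted p = 8.34e-05). Because tip lay near the pseudocount of 1, this log2 value understates the ratio. Nr3c1, the glucocorticoid receptor gene, was no member of the 10 but bears on them, and stood at 2.71 ± 0.288 RPKM in tip against 18.9 ± 1.88 RPKM in stalk. The glucocorticoid receptor transcript was thus the more abundant of the receptors in all 6 libraries per length, with an Nr3c2 to Nr3c1 ratio of 0.346 to 0.417 in tip and 0.261 to 0.301 in stalk. That ratio was 1.34-fold higher in tip (exact permutation p = 0.1, adjusted p = 0.14). The highest tip ratio, 0.417 in replicate 2, includes a minor Nr3c2 row at 0.572 RPKM there. This row was at 0.0576 and 0.00525 RPKM in tip replicates 1 and 3.

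Hsd11b2, which converts active glucocorticoids to inactive forms and so leaves the receptor to aldosterone, was far more abundant than the receptor itself. The gene (ENSMUSG00000031891, chromosome 8, 105518755 to 105523988, plus strand) stood at 11, 25.2 and 17.3 RPKM in tip and at 80.9, 94.1 and 64.7 RPKM in stalk. Both groups spread widely, but the lowest stalk library was still above the highest tip library. The log2 fold change was -2.16 (SE 0.26, limma adjusted p = 0.000292). The ratio of Hsd11b2 to Nr3c2 overlapped between the groups, at 12.4 to 21.5 in tip and 13.8 to 16.0 in stalk (exact permutation p = 0.6, adjusted p = 0.7).

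Sgk1, the kinase gene induced by aldosterone and by glucocorticoids, was the most variable of the 10 within tip. The gene (ENSMUSG00000019970, chromosome 10, 21882184 to 21999903, plus strand) stood at 8.58, 26.7 and 8.84 RPKM in tip and at 61.0, 41.6 and 60.3 RPKM in stalk. Tip replicate 2 was 3.07 times the mean of the other tip libraries and lay between them and stalk. With all libraries Sgk1 was 3.69-fold higher in stalk (log2 fold change -1.98, SE 0.38, limma adjusted p = 0.00316). Without tip replicate 2 the fold was 6.23 and the log2 fold change was -2.49 (adjusted p = 5.06e-05).

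Tip replicate 2 was the highest tip library for 7 of the 10 genes, namely Scnn1b, Nr3c2, Hsd11b2, Sgk1, Nedd4l, Prss8 and Tsc22d3. Among all tested genes it was the highest tip library for 28.9%. For Nr3c2, the place of tip replicate 2 rests on a minor row, at 0.572 RPKM there against 0.0576 and 0.00525 RPKM. The leading Nr3c2 row was lowest in tip replicate 2, at 0.555 RPKM against 0.803 and 1.01 RPKM. Tissue dissociation can induce genes of the immediate early and heat shock responses. Of 17 such genes listed, tip replicate 3 was the highest tip library for 11 and tip replicate 2 for 6. Those 6 were all the heat shock genes listed, with the immediate early genes Atf3 and Jund. In tip replicate 2, Hspa1a was at 3.29, Hspa1b at 3.61, Hspb1 at 2.41 and Dnajb1 at 1.26 times the mean of the other tip libraries. Atf3 was at 2.12 and Jund at 1.16 times that mean. The heat shock gene Hspa1b stood at 33.5 RPKM in tip replicate 2, against 8.88 and 9.65 RPKM in tip replicates 1 and 3. The immediate early gene Fos was lowest in tip replicate 2, at 218 RPKM against 413 and 641 RPKM. Over the 17 genes, the summed level was 4221 to 5692 RPKM in tip, where replicate 2 was lowest, and 6283 to 9301 RPKM in stalk, and 0 of the 17 were at 0 in every library. Abundant immediate early genes make up most of this sum, so it does not follow the heat shock genes. The part of tissue dissociation in the Sgk1 result was not tested.

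Nedd4l, whose ligase binds the tails of the channel subunits, gave the most even stalk values of the 10. The gene (ENSMUSG00000024589, chromosome 18, 64887705 to 65217828, plus strand) stood at 7.10, 9.41 and 7.55 RPKM in tip and at 30.8, 31.0 and 30.4 RPKM in stalk. Stalk exceeded tip 3.83-fold (log2 fold change -1.82, SE 0.12, limma adjusted p = 1.64e-05). The ratio of the kinase gene to the gene of the ligase it inhibits overlapped between the groups through tip replicate 2. In tip replicates 1 and 3 this ratio lay below every stalk library. The ratio of Sgk1 to Nedd4l was 1.21, 2.84 and 1.17 in tip and 1.98, 1.34 and 1.98 in stalk (exact permutation p = 0.8, adjusted p = 0.8), with an estimated tip to stalk ratio of 0.914.

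Tsc22d3, also called GILZ, encodes a leucine zipper protein induced by corticosteroids. The gene (ENSMUSG00000031431, chromosome X, 140539528 to 140600659, minus strand) stood at 11.9, 14.6 and 12.9 RPKM in tip and at 24.3, 32.0 and 24.7 RPKM in stalk. Stalk was 2.05-fold higher (log2 fold change -0.98, SE 0.14, limma adjusted p = 0.000585). This change was smaller than those of the channel, the receptor and Sgk1.

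The deposited table holds more than 1 row for some symbols, without transcript identifiers, and for Nedd4l and Tsc22d3 more than 1 row had a mean of at least 1 RPKM. These rows were examined singly after their values had been seen. In a limma fit over 20279 single rows, 13.9% were called higher in stalk and 15.9% higher in tip. The leading row of Nedd4l stood at 5.93, 7.86 and 6.02 RPKM in tip and at 19.2, 14.9 and 18.0 RPKM in stalk, a 2.63-fold difference (log2 fold change -1.28, adjusted p = 0.00106). The other Nedd4l row stood at 1.17, 1.55 and 1.53 RPKM in tip and at 11.6, 16.1 and 12.4 RPKM in stalk, a 9.43-fold difference (log2 fold change -2.56, adjusted p = 0.000123). The second row thus held 17.8 ± 2.19% of the gene's RPKM in tip and 43.4 ± 7.58% in stalk (SD, n = 3), with no overlap (exact permutation p = 0.1, the smallest possible).

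Of the 3 Tsc22d3 rows, 2 were called higher in stalk and the other was not called. The row with the highest mean stood at 3.22, 6.21 and 3.32 RPKM in tip and at 16.2, 18.0 and 13.3 RPKM in stalk (log2 fold change -1.71, limma adjusted p = 0.00171). A further row, at 0.445, 1.06 and 0.545 RPKM in tip and 4.38, 7.70 and 4.37 RPKM in stalk, was also called higher in stalk (log2 fold change -1.92, limma adjusted p = 0.00184). The remaining row stood at 8.26, 7.26 and 8.97 RPKM in tip and at 3.35, 5.90 and 7.0 RPKM in stalk. Every tip library of this row lay above every stalk library, but the difference missed the threshold (log2 fold change 0.56, limma adjusted p = 0.121). It held 62.8 ± 11.4% of the gene's RPKM in tip and 20.2 ± 7.47% in stalk (exact permutation p = 0.1, the smallest possible). With the highest row alone, the gene's log2 fold change was -1.71 in place of -0.98. Rows called in both directions were found for 34 of 4424 symbols with more than 1 tested row (0.769%), and Tsc22d3 was not among them.

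**Figure D3:**
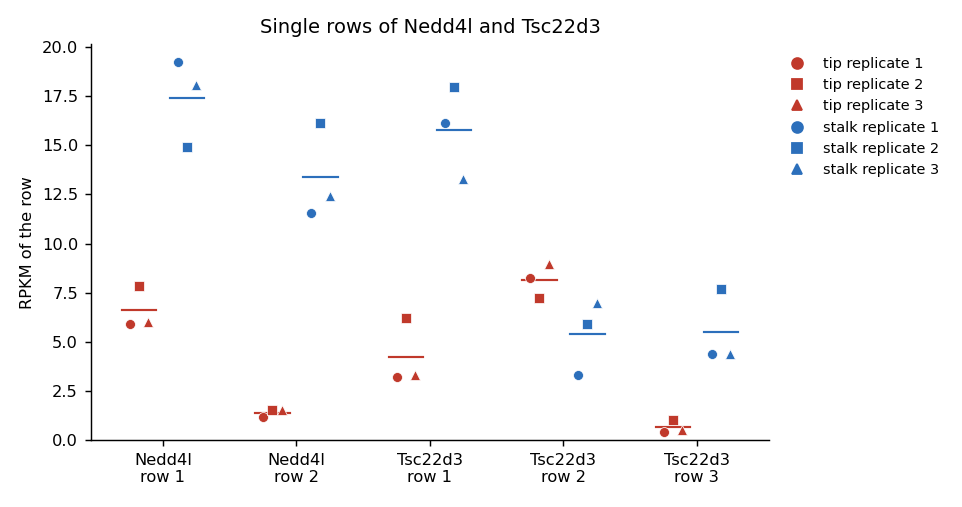
RPKM of the 2 Nedd4l rows and of the 3 Tsc22d3 rows with a mean of at least 1 RPKM, in each library, with lines at group means (n = 3). Tsc22d3 row 2 is the only row drawn in which the tip libraries (7.26 to 8.97 RPKM) lie above the stalk libraries (3.35 to 7.0 RPKM).

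Assignment of rows to transcripts was not possible. The number of rows in the table, those without values included, equalled the number of GENCODE M21 transcripts for Scnn1a (7), Nr3c2 (8), Sgk1 (13), Tsc22d3 (6), Scnn1g (1) and Hsd11b2 (1). It did not for Nedd4l, with 2 rows against 34 transcripts, nor for Scnn1b, Prss8 and St14. Shares of low rows were unstable between libraries. The leading row of Nr3c2 held 90.8%, 47.4% and 99.5% of that gene's RPKM in tip, and 91.6 to 97.4% in stalk.

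Prss8 and St14 differed by less than the 3 channel subunit genes did. Prss8, which encodes prostasin, a membrane-anchored serine protease (ENSMUSG00000030800, chromosome 7, 127925716 to 127930104, minus strand), stood at 21.7, 29.1 and 27.9 RPKM in tip and at 79.2, 65.0 and 52.3 RPKM in stalk. It was 2.50-fold higher in stalk (log2 fold change -1.28, SE 0.17, limma adjusted p = 0.000439). St14, which encodes matriptase (ENSMUSG00000031995, chromosome 9, 31089402 to 31131853, minus strand), stood at 68.9, 70.0 and 70.3 RPKM in tip and at 81.7, 80.3 and 84.1 RPKM in stalk. In tip St14 was the most abundant of the 10, whereas in stalk Scnn1b exceeded it in every library and Scnn1g and Hsd11b2 overlapped it.

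The St14 difference was small and rested on tight replicates. Its log2 fold change was -0.23 (SE 0.08, 95% interval -0.41 to -0.05, limma adjusted p = 0.0409), and 32% of tested genes had a larger change toward stalk. Leaving out any 1 of the 6 libraries ended the call, with adjusted p between 0.0619 (without stalk replicate 1) and 0.122 (without tip replicate 1). The ratio of St14 to Prss8 was 3.18, 2.40 and 2.52 in tip and 1.03, 1.24 and 1.61 in stalk, a 2.11-fold difference (exact permutation p = 0.1, adjusted p = 0.14). On the opposite strand St14 overlaps the pseudogene Gm16071, at a mean of 1.08 RPKM, over 793 bases, and Prss8 overlaps Kat8, at 8.73 RPKM, over 122 bases.

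**Figure D4:**
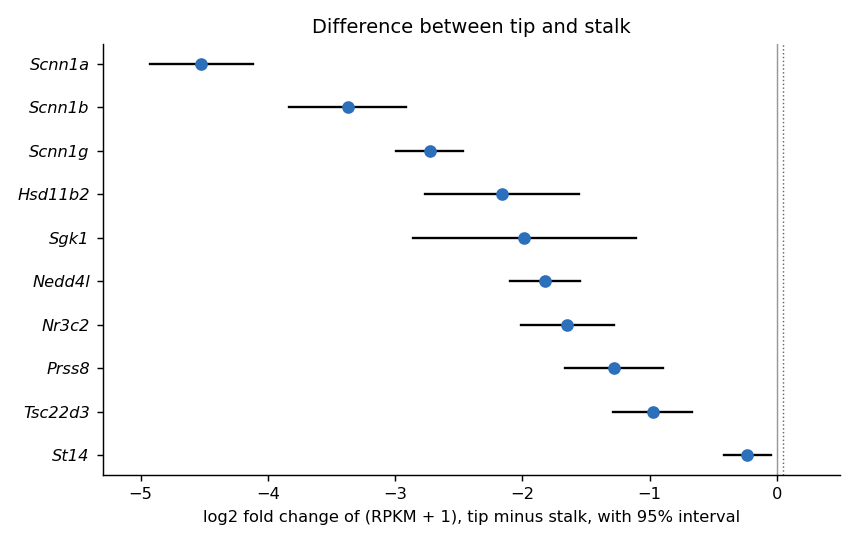
Log2 fold change of (RPKM + 1), tip minus stalk, of each of the 10 genes with its 95% interval from limma, with a dotted line at the median of all tested genes (0.05). All 10 intervals lie below 0, from Scnn1a at -4.52 to St14 at -0.23.

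The wider pathway was covered by 6 lists that hold 92 genes beside the 10, counted once each. Of these, 76 were tested, 30 were called higher in stalk and 13 higher in tip, with 33 not called. Of all tested genes, 22.5% were called higher in stalk and 26.1% higher in tip. The counts of called genes in every list below are to be read beside these shares. The lists had been written with earlier results of these data known, and counts and medians below describe them.

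Genes of corticosteroid receptors, hormone metabolism and receptor chaperones went both ways, with 2 of 11 tested higher in stalk and 2 higher in tip (median log2 fold change 0.12). Nr3c1 changed most (-2.42, limma adjusted p = 7.87e-06), and H6pd, which supplies the cofactor of the enzyme Hsd11b1, was at 6.61 ± 0.932 RPKM in tip against 10.7 ± 2.04 RPKM in stalk. The chaperone genes Fkbp4 (0.76) and Ptges3 (0.37) were higher in tip. The H6pd call was lost without stalk replicate 2 (adjusted p = 0.0521, limma) or stalk replicate 3 (0.0606), and the Ptges3 call without tip replicate 3 (0.0679) or stalk replicate 2 (0.0517). Hsd11b1, which makes active glucocorticoid, was at 0.30 RPKM or less in every library and was not tested.

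Among corticosteroid target genes, 10 of 16 tested were higher in stalk and 1 in tip (median -1.06). The sodium pump regulator Fxyd4 (-4.68), the pump subunit gene Atp1b1 (-2.59), the transcription factor gene Cebpd (-2.05) and the deubiquitinase gene Usp2 (-1.87) changed most. Fxyd4 stood at 0.410 ± 0.301 RPKM in tip against 34.6 ± 1.36 RPKM in stalk, and Usp2 at 4.0 ± 0.453 and 17.2 ± 1.70 RPKM. Fkbp5, a target of the glucocorticoid receptor that also binds it, was chosen for mention after its values were seen and was at 11.8 to 14.6 RPKM in tip and 10.9 to 14.3 RPKM in stalk (log2 fold change 0.06, limma adjusted p = 0.738).

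Of 15 tested SGK, WNK and mTORC2 genes, 5 were higher in stalk and 3 higher in tip (median 0.04). Among all tested genes these shares were 22.5% and 26.1%. Wnk4, a kinase gene of distal salt transport, stood at 5.59 ± 0.778 RPKM in tip against 21.4 ± 2.53 RPKM in stalk (-1.76), and Stk39, which encodes the kinase SPAK downstream of WNK, changed by -1.24. Other WNK kinase genes did not follow Wnk4. Wnk2 (0.68, limma adjusted p = 0.00256) and Wnk3 (0.57, limma adjusted p = 0.0234, at a mean of 1.06 RPKM) were higher in tip, and Wnk1 was not called. Sgk3, a relative of Sgk1, changed by -0.75, from 0.930 ± 0.264 RPKM in tip to 2.31 ± 0.926 RPKM in stalk, and the mTORC2 gene Prr5 was higher in tip (0.73). The Sgk3 call was lost in 6 alternatives, among them without tip replicate 1 (limma adjusted p = 0.0921), tip replicate 2 (0.0553) or stalk replicate 2 (0.0696), and with its highest row alone (-0.56, adjusted p = 0.166). The number called in this list was 8 in all, and it was 4 without tip replicate 1 or without tip replicate 2.

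Of 14 ubiquitin ligase, deubiquitinase and adaptor genes, 3 were higher in stalk and 4 higher in tip (median -0.14). These counts are near the shares of all tested genes, 22.5% and 26.1%. Beside Usp2, the ligase adaptor gene Ndfip2 was higher in stalk (-0.52), and the deubiquitinase genes Usp10 (0.59) and Uchl3 (0.64) were higher in tip. The Uchl3 call was lost in 5 alternatives, among them without tip replicate 1 (limma adjusted p = 0.0773), tip replicate 3 (0.0706), stalk replicate 2 (0.0611) or stalk replicate 3 (0.0532). Nedd4, the paralog of Nedd4l, was also named after its values were seen, and stood at 262 to 283 RPKM in tip and 232 to 240 RPKM in stalk (log2 fold change 0.20, limma adjusted p = 0.0787).

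Of 14 tested genes in the list of channel-activating proteases and their inhibitors, 6 were higher in stalk and 2 higher in tip (median -0.35). The 2 were Serpine2 and the epithelial adhesion gene Epcam (0.38, limma adjusted p = 0.00585). The protease gene Tmprss2 stood at 10.6 ± 1.61 RPKM in tip against 82.8 ± 8.28 RPKM in stalk (-2.86), and Tmprss4 at 0.475 ± 0.225 and 1.96 ± 0.393 RPKM (-1.01). Spint1, which encodes the matriptase inhibitor HAI-1, was higher in stalk at 96.2 ± 12.3 against 38.7 ± 3.37 RPKM (-1.29). Serpine2, which encodes the serine protease inhibitor protease nexin-1, went the other way, at 25 ± 2.20 RPKM in tip against 3.87 ± 0.393 RPKM in stalk (2.41, limma adjusted p = 6.33e-06).

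Related channels and sodium transport partners had 8 of 11 tested genes higher in stalk and 1 higher in tip (median -0.99). Beside Fxyd4 and Atp1b1, the potassium channel gene Kcnj16 (-2.06) and the pump regulator gene Fxyd2 (-1.75) were higher in stalk. Fxyd2 overlapped between groups, with tip replicate 3 at 12.5 RPKM and stalk replicate 1 at 8.87 RPKM. Its call was lost in 8 of 15 alternatives, among them without tip replicate 1 (limma adjusted p = 0.140), tip replicate 2 (0.107), stalk replicate 2 (0.134) or stalk replicate 3 (0.1045). Without tip replicate 3 its log2 fold change was -2.49 (limma adjusted p = 0.00267). Slc12a1, of the same list and not called, was also highest in that tip library. It stood at 0.104, 1.17 and 9.14 RPKM in tip replicates 1 to 3. Among all tested genes, tip replicate 3 was the highest tip library for 36.2%. Kcnj1, the potassium secretory channel gene of principal cells, was at 0.86 RPKM or less in every library and was not tested.

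**Figure D5:**
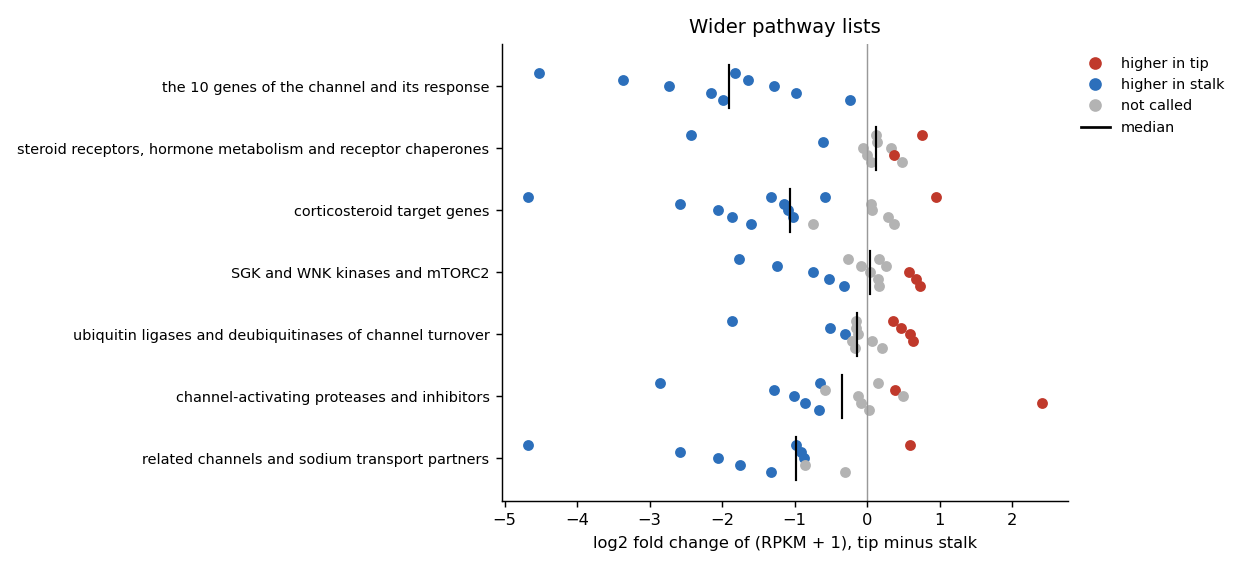
Log2 fold change of (RPKM + 1), tip minus stalk, of each tested gene of the 10 and of the 6 wider lists, coloured by call, with a line at each median; vertical position within a list has no meaning. The 10 genes have a median of -1.90, and only Serpine2 (2.41) exceeds 1 toward tip.

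Labels and cell types were checked against markers. Wnt11 stood at 693 ± 255 RPKM in tip against 11.7 ± 11.6 RPKM in stalk, and Aqp2, the water channel gene of principal cells, was 142-fold higher in stalk. Summed over 6 tip markers, with Gfra1 the highest after Wnt11, levels were 1021 to 1800 RPKM in tip and 48.6 to 112 RPKM in stalk. Stalk held markers of several cell types, with 8 principal cell genes, led by Aqp2 and Aqp3, at 28.1 to 49.9 RPKM in tip and 727 to 1139 RPKM in stalk. Summed levels of 7 intercalated cell genes, led by Rhcg and Atp6v1b1, were 2.12 to 4.44 and 268 to 420 RPKM. Those of 6 urothelial genes, led by Upk3a and Upk1b, were 2.76 to 2.84 and 197 to 428 RPKM. Most of the tip sum was Trp63, at 2.06 to 2.51 RPKM in tip and 0.664 to 2.81 RPKM in stalk. Trp63 overlapped between the groups and was not called (log2 fold change 0.27, limma adjusted p = 0.481). In tip, Upk2 and Krt5 of the 6 urothelial genes were listed at 0 in all libraries, and none of the 6 was at 0 throughout stalk.

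Markers listed for other cell types were examined next. The 12 endothelial genes, led by Egfl7 and Plvap, summed to 35.8 to 38.0 RPKM in tip and 77.1 to 125 RPKM in stalk. Of 11 tested, 10 were higher in stalk, so most moved with the 10 genes. Eng went the other way (0.38, limma adjusted p = 0.0486). Egfl7 and Eng, at means of 18.1 and 9.59 RPKM, made up most of the tip sum. Egfl7 was 1.38-fold higher in stalk, and the rest of those called there were 5.13-fold (Kdr) to 21.9-fold (Tek) higher. However, Egfl7 was higher in tip when only its highest row was used (1.14), and its call was lost in 8 alternatives. Stromal genes, led by Acta2 and Col3a1, summed to 5.18 to 10.05 and 5.62 to 8.25 RPKM, with 0 of 3 tested called by limma and 0 at an unadjusted p under 0.05. Immune genes, led by Cd68 and Ptprc, summed to 12.8 to 15.4 and 12.2 to 19.5 RPKM. Of 3 tested immune genes, Laptm5, a lysosomal membrane protein gene of blood cells, was 49.8-fold higher in stalk (-2.39), as the 10 genes were, and Cd68 was higher in tip (0.69). Of 8 listed, Tyrobp, Fcer1g and C1qa were at 0.30 RPKM or less in every library. Sums of nephron progenitor and podocyte genes, led by Podxl and Cited1, were 5.31 to 11.3 and 6.80 to 9.15 RPKM. The distal nephron list summed to 325 to 348 RPKM in tip and 51.0 to 108 RPKM in stalk and was dominated by Calb1. Calb1 was 5.96-fold higher in tip, and Wnk4, next in level and also in a pathway list above, was 3.82-fold higher in stalk. Slc12a1 was not called. Slc12a3, Umod and Trpv5 were at or below 3.14, 2.16 and 0.11 RPKM in every library and were not tested. The sum thus follows Calb1 and is no measure of distal nephron cells. Of 17 immediate early and heat shock genes, with Nr4a1 and Jun the most abundant, 11 were higher in stalk, and the Jun call was lost in 6 alternatives. The part of these cell types and of tissue dissociation in the results was not tested.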

How the data were processed

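Poly(A) mRNA libraries of sorted ureteric cells, 3 tip and 3 stalk, were made with a Kapa stranded kit from RNA isolated with a Qiagen kit, per the labels' protocols. The deposited values, in 1 table, were the authors' RPKM. Tools and build named in the submitters' processing notes were bcl2fastq 2.17, TopHat2, Partek and mm10. Which annotation was counted, and whether strand was used, is not given in the sources used here. Of 93615 rows, 24545 held question marks in all 6 columns and were left out, and the other 69070 rows were summed per symbol. Of the values above 0, 22.3% were below 1e-06, which whole reads cannot give, so the depth was unknown and no counting interval was given. Summed RPKM ran from 345123 to 366035 per library and is no measure of depth.

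Summed values averaging 1 RPKM or more were log2-transformed after adding 1, and limma 3.58.1 (R 4.3.3) was fitted with group as the only term and a mean-variance trend. Ratios between genes were compared with exact permutation tests. Coordinates came from GENCODE M21 (mm10) and sequences from RefSeq's promoter table (GRCm38.p6). The genes and lists were chosen with earlier results of these data known. Named genes were the 10, up to 4 called genes with the largest change per wider list (the 2 most abundant where fewer than 2 were called), and the 2 most abundant genes per marker list. For Scnn1a, Sgk1 and Nedd4l the 3 genes most alike were added. Fos, Hspa1b, Hsd11b1, Kcnj1, Fkbp5, Nedd4, Laptm5, Tyrobp, Fcer1g, C1qa, Upk2, Krt5, Trp63, Slc12a1, Slc12a3, Umod and Trpv5 were named after their values were seen. So were Hspa1a, Hspb1, Dnajb1, Atf3, Jund, Wnk1, Wnk2, Wnk3, Epcam, Eng, Kdr and Tek. Alternatives changed the pseudocount, filter, scaling, choice of rows, variance trend, block and libraries.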

Additional observations from a re-analysis of the deposited data

How the results depend on the processing

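All 10 genes kept their direction under each alternative that tested them, and 9 of them (all but St14) stayed past the threshold in each. Nr3c2 was not tested with a minimum mean of 5 RPKM, where 9 of the 10 genes were called. St14, at -0.23, lost its call without the variance trend (-0.23, adjusted p = 0.0852), with the replicate block (-0.23, adjusted p = 0.118) and without tip replicate 2 and stalk replicate 1 together (-0.24, adjusted p = 0.0667). With 1 library left out it ranged from -0.25 to -0.21, with no call. The pseudocount moved low genes most: Scnn1a was at -5.55 with 0.1 and -2.96 with 5, and Nr3c2 at -2.28 and -0.78. Median ratio scaling moved the median of all genes from 0.05 to -0.00 and the calls from 3274 in tip and 2815 in stalk to 3013 and 3143. The number of SGK, WNK and mTORC2 genes called was 5 with a minimum of 5 RPKM, 4 with the highest row of each symbol, 5 with the replicate block, 5 without tip replicate 2 and stalk replicate 1 together, and 4 to 7 with 1 library left out. With the highest row of each symbol, the log2 ratio difference was 0.92 for Nr3c2 to Nr3c1 in place of 0.42, and 0.48 for Hsd11b2 to Nr3c2 in place of 0.16. Among the markers, Egfl7 reversed with the highest row (1.14). With 1 library left out, Acta2 ranged from -0.38 to 0.15, above 0 without tip replicate 1. Col3a1 ranged from -0.21 to 0.12, above 0 without tip replicate 1 and without stalk replicate 2 (0.07). The cause was not tested. Deviations from the group means of same-numbered libraries correlated across genes at -0.30, -0.34 and 0.09. Differently numbered libraries ranged from -0.44 to 0.56, and no library correlated best with its own number. The highest were tip replicate 2 with stalk replicate 1 (0.56), tip 3 with stalk 2 (0.40) and tip 1 with stalk 3 (0.33). The deviations within a group sum to 0, so these values are not independent. Whether any libraries were prepared together cannot be told from them. Genes called numbered 5096 with the replicate block and 6089 without it. With unknown depth, values near or below 1 RPKM, such as Scnn1a in tip, carry an error that only the spread of 3 libraries shows.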

Other observations

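For 3 of the genes, the tested genes outside the 10 with the most similar course of log2(RPKM + 1) over the 6 libraries were listed as a description. The points of a group share the difference between the groups, which enters every such correlation. Closest to Scnn1a were Cd14, a lipopolysaccharide co-receptor gene (r = 0.9998), Ticam1, an adaptor gene of Toll-like receptors (r = 0.9997), and Cdipt, a phosphatidylinositol synthase gene (r = 0.9994). Their levels differed widely. Cd14 was at 1.82 to 1.99 RPKM in stalk and 0.0257 to 0.201 RPKM in tip, while Cdipt was at 74.1 to 77.3 RPKM in stalk and 34.9 to 37.9 RPKM in tip. For Scnn1a, 266 genes reached a correlation of at least 0.99.

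Closest to Nedd4l were Pde7b (r = 0.9995), Wnt4 (r = 0.9995) and Glb1l2 (r = 0.9995), with 276 genes at 0.99 or above. Wnt4, which encodes a signalling ligand of kidney development, stood at 45.0, 43.6 and 47.8 RPKM in stalk and at 1.83, 3.55 and 2.26 RPKM in tip. Sgk1 had 4 genes at 0.99 or above, far fewer than Scnn1a and Nedd4l, and its course includes the high value of tip replicate 2. The closest were Gm5578 (r = 0.995), Gm6055 (r = 0.994) and Slc14a2, a urea transporter gene (r = 0.993). Slc14a2 stood at 0.722, 1.58 and 0.687 RPKM in tip, with replicate 2 highest as for Sgk1, and at 2.92, 2.29 and 3.31 RPKM in stalk, with replicate 2 lowest as for Sgk1.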
